A study of Mus musculus with 5 samples.

Results

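Endothelial barrier and transport genes were followed in whole mouse retina as a set of 10 genes, out of 18193 named genes on the array. The set was defined by name: the tight junction genes Cldn5, Ocln and Tjp1, the adhesion genes Cdh5, Esam and Pecam1, the fenestra gene Plvap, and the transporter genes Slc2a1, Mfsd2a and Abcb1a. They were measured by 15 probe sets, groups of oligonucleotides that each report transcripts of 1 gene. Where a gene had several probe sets, the one with the highest mean stood for it. Total RNA from pooled retinas was hybridised to 5 Affymetrix arrays, 1 array per pool. Diabetic replicates 1 and 2 each came from 4 retinas of 2 mice, 5 weeks into diabetes induced with streptozotocin, which destroys pancreatic beta cells. Diabetic replicate 3 came from 3 mice, 6 retinas in all, whose diabetes had been induced 3 to 4 weeks before. Control replicates 1 and 2 each came from 4 retinas of 2 untreated mice of the same age with normal blood glucose. The labels name no strain, sex or age in weeks. A pool averages its mice, so the spread between arrays is that between pools.

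Retinal capillaries form the inner blood-retinal barrier. Their endothelial cells are sealed by tight junctions, carry few transport vesicles and lack fenestrae, so that glucose, lipids and amino acids cross on dedicated transporters while efflux pumps return many drugs to the blood. The choriocapillaris behind the retina is fenestrated, and there the pigment epithelium forms the outer barrier with tight junctions of its own. Leakage of retinal vessels is a known feature of diabetic retinopathy, and the comparison asks which of these transcripts differ within weeks of diabetes.

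No member passed the test between diabetic and control pools. In all, 6 of the 10 genes lay in the upper 60% by mean level and were tested, and 0 of these 6 were called at an adjusted p of 0.05 (limma, Benjamini-Hochberg adjusted p = 0.999 for each), where 0% of all 10916 genes tested were called. At an unadjusted p under 0.05 there were also 0 of 6 members, against 370 genes or 3.39% of all genes tested. Levels and differences below are on the log2(signal + 120.6) scale, which understates differences of dim genes. The 6 tested members had a median difference of 0.06, with 5 of 6 above 0, beside a median of 0.0060 over all genes tested, of which 5668 were above 0 and 5248 below. Over all 10 members the median difference was 0.0074, with 6 of 10 above 0, and Cdh5 joined these under quantile normalization (0.03) and median centring (0.04). The members' median was -0.0029 when diabetic replicate 2 was left out and 0.0033 when control replicate 2 was, and the sign of Tjp1 turned under quantile normalization (-0.01) and those of Tjp1 and Esam when the endothelial identity mean was subtracted (-0.03 and -0.02). Ocln, Cdh5, Mfsd2a and Pecam1 were below the filter, which lay at a level of 9.70, and their values are given with intervals from a fit over all 18193 genes.

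**Figure D1:**
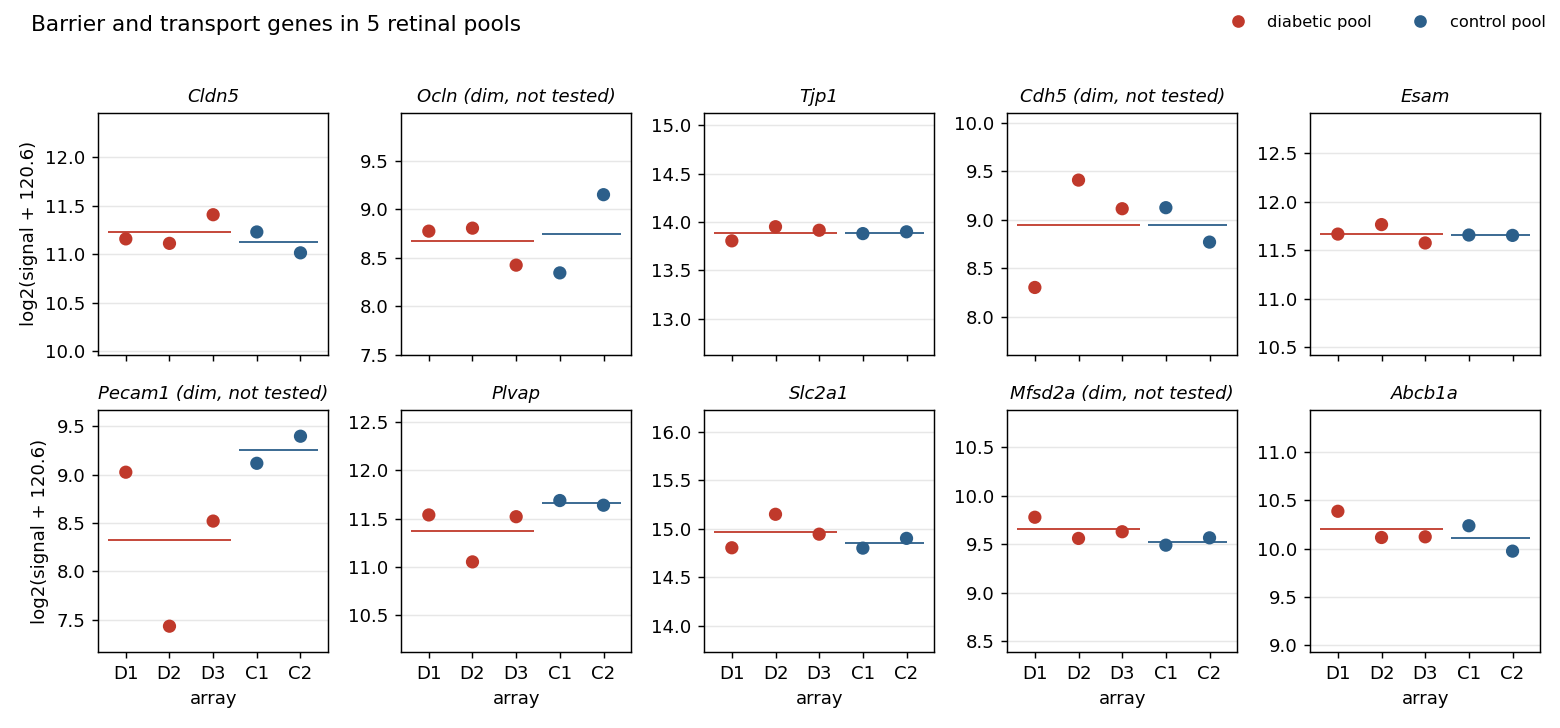
Level of each member in the diabetic pools (D1 to D3, red) and control pools (C1 and C2, blue), as log2(signal + 120.6), with lines at the group means. Every panel spans 2.5 log2 units; Pecam1 and Cdh5 spread widest, while Tjp1 and Esam are nearly flat across the 5 arrays.

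The pools resembled retina, and some endothelial genes were bright enough to test while others were dim. The rod gene Sag, which encodes the photoreceptor arrestin, had signals of 108659 to 140068, and the rod genes Gnat1 and Nrl read 104007 to 123733 and 103161 to 121536. Of 20 endothelial identity genes in a fixed list 19 were on the array and 8 were bright enough to test, led by the VEGF receptor gene Kdr at signals of 7206 to 10338. The summed signal of 12 skeletal muscle markers was 93501 in diabetic replicate 3 and 58865 in control replicate 2, against 5783 to 6463 in the other arrays. Pigment epithelium markers summed over 9 genes were lower in the diabetic pools, at 89226 to 125492, than in the controls, at 143937 and 186856. The ratio of 3' to 5' beta-actin signal, a measure of RNA integrity, was 4.32 in diabetic replicate 2 and 2.01 to 2.71 in the others. The same ratio for Gapdh was 0.901 in diabetic replicate 2 and 0.784 to 0.838 in the others, a much smaller gap.

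Of the tight junction genes, Cldn5 and Tjp1 differed by less than the spread between pools. Cldn5 encodes claudin-5, the claudin that seals central nervous system capillaries. Its signal was 2166, 2094 and 2598 in diabetic replicates 1 to 3 and 2283 and 1949 in control replicates 1 and 2. The groups overlapped, with diabetic replicate 3 highest and control replicate 2 lowest. The diabetic pools had a mean level of 11.23 ± 0.16 (SD, n = 3) and the controls one of 11.12 ± 0.15 (SD, n = 2), a difference of 0.10 (SE 0.15, 95% interval -0.23 to 0.44). Without control replicate 2 the difference was -0.0037, and without diabetic replicate 3, which leaves the pools of 5 weeks, it was 0.01.

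Tjp1 encodes the scaffold ZO-1, which ties claudins and occludin to actin in endothelium, epithelium and glia alike. Its signal was 14188, 15710 and 15316 in diabetic and 14949 and 15144 in control pools. Both controls lay inside the diabetic range, and the lowest array held 90.3% of the highest signal. The difference was 0.0011 (SE 0.08), with a 95% interval of -0.18 to 0.19 that spans ratios from 0.881 to 1.14.

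Ocln, for occludin, was dim. Its chosen probe set had signals of 317.2, 326.7 and 222.6 in diabetic and 204.1 and 447.8 in control pools. The 2 controls were the lowest and the highest array, so the difference of -0.08 (95% interval -0.85 to 0.69) rested on which control was used. It was -0.48 against control replicate 2 alone and 0.32 against control replicate 1 alone. A second probe set read 221.3, 33.7 and 363.2 in diabetic and 295.7 and 273.0 in control pools, with its lowest value in diabetic replicate 2. The part of that array's actin ratio of 4.32 in this value was not tested. These values leave the level of Ocln poorly measured in every pool.

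The adhesion genes divided by brightness. Esam, an endothelial immunoglobulin-family adhesion molecule of tight junctions, was the steadiest of the 3. Its signal was 3132, 3361 and 2932 in diabetic and 3110 and 3102 in control pools. The groups overlapped, with the controls almost equal and between the diabetic pools. The difference was 0.01 (SE 0.11, 95% interval -0.24 to 0.27), and -0.02 when the mean of the endothelial identity genes was subtracted in each array.

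Cdh5 encodes VE-cadherin, the adhesion molecule of endothelial adherens junctions. Its brighter probe set read 195.0, 560.1 and 434.0 in diabetic and 438.2 and 316.1 in control pools. The diabetic pools enclosed both controls, with diabetic replicate 1 lowest and diabetic replicate 2 highest. The difference of -0.0055 (95% interval -0.89 to 0.88) was 0.31 when diabetic replicate 1 was left out and -0.24 when diabetic replicate 2 was, and turned to 0.03 under quantile normalization and 0.04 under median centring. The other probe set was dimmer still, at 73.8 to 187.6.

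Pecam1, the adhesion molecule of endothelium that platelets and leukocytes also carry, had the widest spread of the set. Its signal was 399.9, 52.2 and 246.2 in diabetic and 434.2 and 552.9 in control pools. All 3 diabetic pools lay below both controls, and diabetic replicate 2 was at 9.45% of the highest array. The diabetic pools had a mean level of 8.33 ± 0.81 (SD, n = 3) and the controls one of 9.26 ± 0.20 (SD, n = 2), a difference of -0.93 (SE 0.47, 95% interval -2.02 to 0.16) that was not called in the fit over all genes (limma adjusted p = 0.9997). Without diabetic replicate 2 it was -0.48, and without diabetic replicate 1 it was -1.28. With a pseudocount of 1 it was -1.50, and with one of 690, the median signal, it was -0.37. The part of the actin ratio of 4.32 in diabetic replicate 2 was not tested. The 10 blood cell markers on the array summed to 1960 to 2015 in diabetic pools and to 1530 and 2631 in controls, and 9 of the 10 overlapped between the groups. The other was the dim platelet gene Gp9, at 72.2, 111.7 and 61.3 in diabetic and 26.1 and 25.9 in control pools. Every diabetic pool lay above both controls in 9.4% of all 18193 genes, so 1 of 10 is near that share.

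Plvap showed the lowest difference among the tested members. It encodes the protein of the diaphragms that span endothelial fenestrae and caveolae, abundant in the choriocapillaris and scarce in vessels with a mature barrier. Its signal was 2853, 2004 and 2816 in diabetic and 3176 and 3067 in control pools. All 3 diabetic pools were below both controls, with diabetic replicate 2 lowest and the other 2 close to the controls. The mean level of the diabetic pools was 11.37 ± 0.27 (SD, n = 3), and that of the controls 11.66 ± 0.03 (SD, n = 2). The difference was -0.29 (SE 0.16), and its 95% interval of -0.67 to 0.08 spans ratios from 0.630 to 1.06. Without diabetic replicate 2 the difference was -0.13, and without the 2 arrays of high muscle signal it was -0.39; the part of the actin ratio of diabetic replicate 2 was not tested. In pooled tissue, fewer cells of a type and less RNA per cell cannot be told apart.

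Lying below both controls in all diabetic pools was not rare. It held for 1 of 6 tested members, Plvap, where 8.15% of all genes tested did so, and for 2 of all 10 members, Plvap and Pecam1, beside 9.07% of all 18193 genes. None of the 10 members had every diabetic pool above both controls, which held for 9.99% of the genes tested and 9.4% of all genes. Pigment epithelium markers were also lower in the diabetic pools. All 8 tested markers had differences below 0, 6 of them without overlap and 0 called, with a median of -1.18 that was -0.70 without control replicate 2. In 6 of the 8 the unadjusted limma p was under 0.05, beside 3.39% of all genes tested. The opsin gene Rgr was at signals of 1486, 2943 and 1989 in diabetic and 5308 and 13841 in control pools. The lactate transporter gene Slc16a8 was at 829.4, 1092 and 996.7 against 1895 and 2742, a difference of -1.14 that was -0.50 as the mean over its probe sets. That of Rgr was -2.00, or -1.32 without control replicate 2. Control replicate 2 was highest for Rgr, while the controls were close for Plvap, at 3176 and 3067. Diabetic replicate 2 was lowest for Plvap and highest of its group for Rgr. The part of pigment epithelium or choroid in the Plvap value was not tested.

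**Figure D2:**
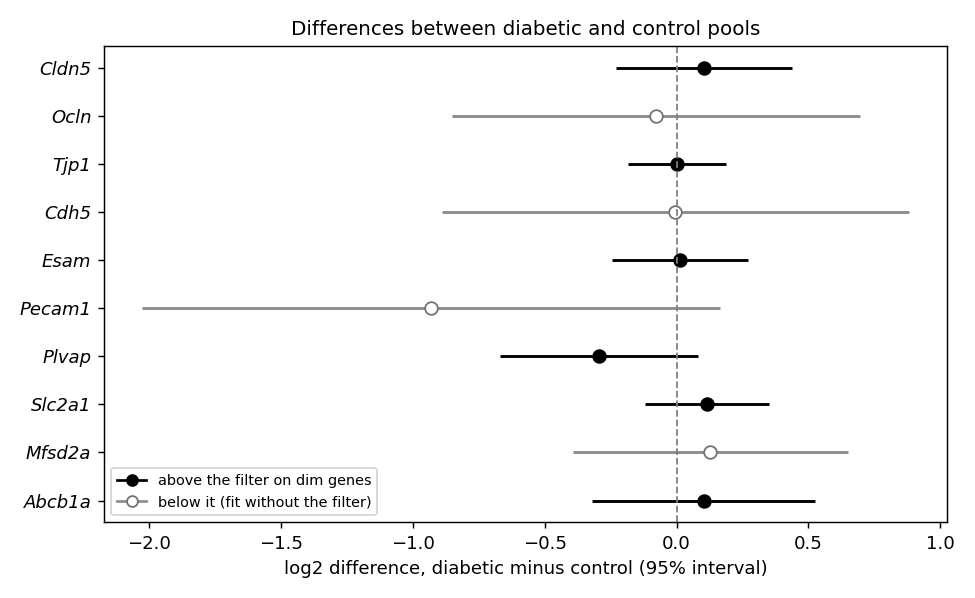
Log2 difference, diabetic minus control, of each member with its 95% interval from limma; filled points are members above the filter on dim genes, open points those below it, with intervals from the fit without the filter. All 10 intervals include 0, and those of Tjp1, Slc2a1 and Esam are the narrowest.

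Among the transporters, Slc2a1 was the brightest and best covered. It encodes the glucose transporter GLUT1, which carries glucose across retinal endothelium and pigment epithelium and into neurons and glia, so its signal here is not endothelial alone. The brightest probe set read 28506, 36260 and 31432 in diabetic and 28433 and 30499 in control pools. The groups overlapped, with diabetic replicate 1 level with control replicate 1 and diabetic replicate 2 highest. The difference was 0.12 (SE 0.10, 95% interval -0.12 to 0.35), and ran from 0.02 without diabetic replicate 2, whose actin ratio was 4.32, to 0.20 without diabetic replicate 1. The part of pigment epithelium in the Slc2a1 value was not tested.

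The other probe sets of Slc2a1 separated the groups more cleanly. The first read 18636, 20494 and 17746 in diabetic and 17318 and 16565 in control pools. The second read 10940, 11001 and 10391 against 9535 and 10153. In both, every diabetic pool was above both controls, as in 8.19% of the 27022 probe sets tested, by differences of 0.16 (SE 0.09) and 0.13 (SE 0.09). None of the 3 was called (limma, Benjamini-Hochberg adjusted p = 0.9999 over probe sets). The 3 probe sets report 1 gene in the same 5 pools and are not independent samples.

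**Figure D3:**
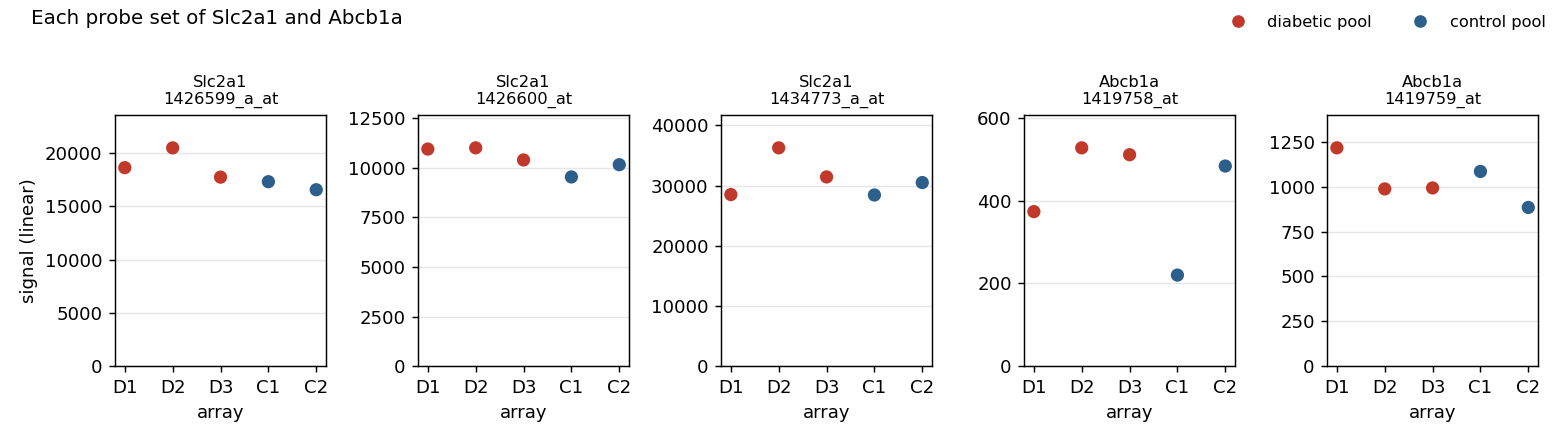
Linear signal of the 3 probe sets of Slc2a1 and the 2 of Abcb1a in each array, diabetic pools in red and control pools in blue, with axes from 0. For Slc2a1 the diabetic pools are above both controls in the 2 dimmer probe sets but overlap them in the brightest; for Abcb1a the groups overlap in both.

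Mfsd2a encodes the lipid transporter that carries docosahexaenoic acid as lysophosphatidylcholine and holds transcytosis low in barrier endothelium; the pigment epithelium expresses it too. Its signal was 757.0, 633.5 and 670.5 in diabetic and 597.9 and 636.7 in control pools. Diabetic replicate 2 lay just below control replicate 2, and the other 2 diabetic pools were above both controls. Its level, 9.65 ± 0.11 (SD, n = 3) in diabetes and 9.53 ± 0.05 (SD, n = 2) in controls, averaged just under the filter, and the difference was 0.13 (95% interval -0.39 to 0.65). It stayed above 0 with each array left out, between 0.07 without diabetic replicate 1 and 0.18 without diabetic replicate 2, and was 0.07 with a pseudocount of 690.

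Abcb1a encodes a P-glycoprotein, the drug efflux pump of barrier endothelium. Its signal was 1217, 987.9 and 993.3 in diabetic and 1085 and 884.7 in control pools. The groups overlapped, with diabetic replicate 1 highest and control replicate 2 lowest. The difference was 0.10 (SE 0.18, 95% interval -0.32 to 0.52), at 0.23 against control replicate 2 alone and -0.03 against control replicate 1 alone, 0.01 without diabetic replicate 1 and 0.24 as the mean over both probe sets. A dimmer probe set differed by 0.37 (SE 0.31), with control replicate 1 low at 220.2 and the other arrays at 373.5 to 527.6.

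**Figure D4:**
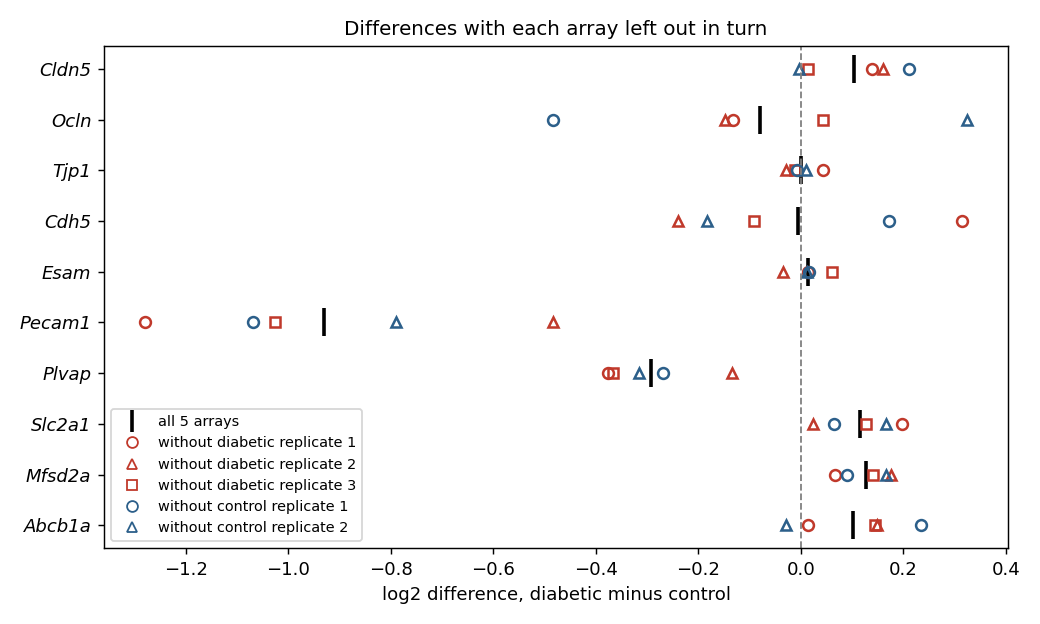
Log2 difference, diabetic minus control, of each member with all 5 arrays (black bar) and with 1 array left out (red symbols, diabetic arrays; blue symbols, control arrays). Plvap and Pecam1 stay below 0 and Slc2a1 and Mfsd2a above 0 in all 5 cases, while Ocln runs from -0.48 to 0.32 and Cdh5 from -0.24 to 0.31.

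The promoter sequences of the members differ in base composition and motifs. RefSeq windows of 250 bases before to 50 after the start (GRCm38.p6) were held for 6 of the 10 members, with 7 windows in all, and Cdh5, Esam, Pecam1 and Plvap were not matched. Each was searched on both strands for GGGCGG (the GC box), CCAAT and TATAAA. Matches of different motifs could share bases, but none did in the member windows. Among all 32851 windows, 35.7% held the first, 37.4% the second and 13.6% the third, against 5, 4 and 1 of the 7 member windows. The windows of 3 genes are printed 5' to 3' as the contrast within the set, with matches on either strand in capitals. Slc2a1 (chr4:119108495-119108794, plus strand) held all 3 motifs, Cldn5 (chr16:18776597-18776896, plus strand) held 2 CCAAT matches and 1 GC box, and Abcb1a (chr5:8566841-8567140, plus strand) held none.
Slc2a1: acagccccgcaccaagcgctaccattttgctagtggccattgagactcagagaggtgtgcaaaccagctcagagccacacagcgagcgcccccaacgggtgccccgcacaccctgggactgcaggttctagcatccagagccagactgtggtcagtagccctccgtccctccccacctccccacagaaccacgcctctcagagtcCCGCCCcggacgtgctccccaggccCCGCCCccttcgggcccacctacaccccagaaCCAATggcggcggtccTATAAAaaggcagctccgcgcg
Cldn5: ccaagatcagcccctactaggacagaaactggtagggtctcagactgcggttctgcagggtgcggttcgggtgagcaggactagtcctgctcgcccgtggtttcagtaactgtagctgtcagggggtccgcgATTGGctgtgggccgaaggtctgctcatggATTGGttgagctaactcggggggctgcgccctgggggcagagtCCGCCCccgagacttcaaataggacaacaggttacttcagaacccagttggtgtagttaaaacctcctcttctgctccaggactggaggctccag
Abcb1a: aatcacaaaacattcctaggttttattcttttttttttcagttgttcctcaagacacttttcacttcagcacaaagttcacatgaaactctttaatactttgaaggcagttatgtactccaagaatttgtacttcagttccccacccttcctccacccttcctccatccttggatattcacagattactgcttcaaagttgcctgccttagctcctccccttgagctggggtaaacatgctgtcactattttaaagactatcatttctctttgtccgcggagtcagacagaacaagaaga
The share of G and C was 65.3% for Slc2a1, 58.3% for Cldn5 and 40.3% for Abcb1a, beside a median of 52.7% over all windows. A match describes letters only, and no match says only that these letters are not in the window.

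Signals upstream of the barrier were followed through the norrin pathway, in which Muller glia secrete norrin and endothelial Fzd4, with its partners Lrp5 and Tspan12, relays it to beta-catenin to build and keep the retinal barrier. Of 12 genes of this list on the array 9 were tested, 5 above 0 and 4 below, with 0 called and a median of 0.03 (from -0.02 to 0.14 with single arrays left out, without diabetic replicates 3 and 1 respectively). Ndp, the norrin gene, was at 1447, 1153 and 1594 in diabetic and 1062 and 1112 in control pools, above both controls in all diabetic pools, with a difference of 0.32 (SE 0.18). Tspan12 was at 843.3, 1377 and 929.3 against 804.3 and 756.1, also without overlap, a difference of 0.35 (SE 0.23) that was 0.16 without diabetic replicate 2. The receptor gene Fzd4, named after its values were seen, differed by 0.18 (SE 0.17) with overlapping groups. In all, 3 of 9 tested genes of the list had every diabetic pool above both controls, beside the 9.99% of all genes tested.

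Slc7a1 was the tested gene with the largest difference among the other transporters of barrier endothelium. Of 18 genes 16 were tested, 9 above 0 and 7 below, with a median of 0.03 (-0.0063 without diabetic replicate 1) and 0 called. In 2 of the 16 every diabetic pool was above both controls and in 2 below both, beside 9.99% and 8.15% of all genes tested. An unadjusted limma p under 0.05 was found in 2 of 16, beside 3.39%. Slc7a1, a carrier of arginine and other cationic amino acids, was at 7642, 9486 and 12197 in diabetic and 6662 and 6232 in control pools, all diabetic pools above both controls. Its difference was 0.57 (SE 0.17, limma adjusted p = 0.999), or 0.40 without diabetic replicate 3, 0.35 without both arrays of high muscle signal and 0.33 as the mean over its probe sets. Lrp8, a lipoprotein receptor of endothelium and neurons, was at 4696, 5069 and 6429 against 6666 and 6691, a difference of -0.31 (SE 0.14) without overlap, or -0.13 as the mean over its probe sets. Many of these genes, like Slc2a1, are also expressed by neurons, glia or pigment epithelium.

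**Figure D5:**
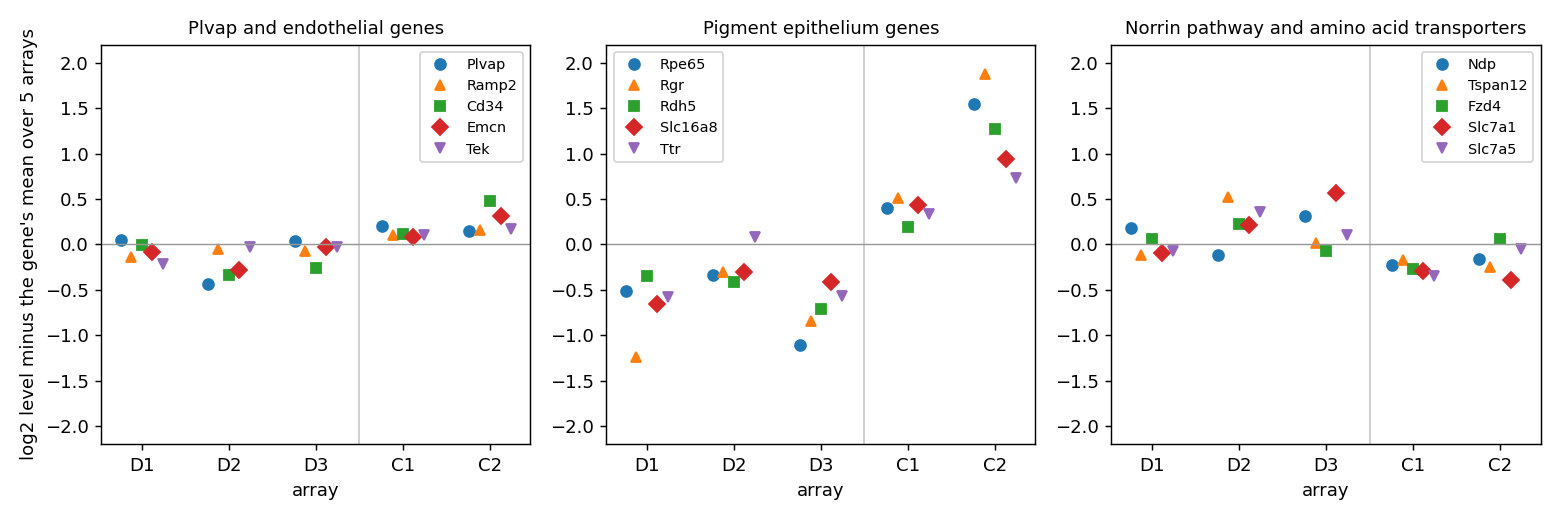
Level of named genes in each array minus the gene's own mean over the 5 arrays, on the log2 scale, for Plvap and endothelial genes, pigment epithelium genes, and norrin pathway genes with amino acid transporters (Cd34, Emcn, Tek, Rpe65, Rdh5, Ttr, Fzd4 and Slc7a5 were chosen after their values were seen). The pigment epithelium genes span the widest range, with control replicate 2 highest. The endothelial genes shown all had every diabetic pool below both controls. This held for 5 of the 19 identity genes on the array, beside 9.07% of all 18193 genes. Another 2, Robo4 and Clec14a, had every diabetic pool above both controls, beside 9.4% of all genes, and are not shown. The rest of the 19, whose groups overlapped, are not shown either.

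No gene was called in the remaining lists around the barrier. Of 12 tested junction genes 7 were above and 5 below 0 (median 0.06, or -0.04 without control replicate 1). An unadjusted limma p under 0.05 was found in 1 of 12, beside 3.39% of all genes tested. Cdh2, the N-cadherin of neurons, glia and pericytes, differed by 0.36 (SE 0.15) with overlapping groups, or by 0.18 when control replicate 2 was left out and 0.22 when diabetic replicate 1 was. The junctional adhesion gene Jam2 differed by 0.19 (SE 0.11) with overlapping groups, or by 0.01 as the mean over its probe sets and 0.33 without both arrays of high muscle signal. Of 8 tested genes of caveolae and transcytosis 5 were above and 3 below 0 (median 0.10 beside 0.0060 over all genes tested, or 0.04 without control replicate 1). In 2 of the 8, Cav2 and Cltc, every diabetic pool was above both controls, beside 9.99% of all genes tested, and 1 of 8 had an unadjusted p under 0.05, beside 3.39%. Cav2, a caveolin, was at 8312, 8831 and 8388 in diabetic and 6888 and 7562 in control pools, a difference of 0.23 (SE 0.09), or 0.40 as the mean over its probe sets. Cltc, the clathrin heavy chain, differed by 0.08 (SE 0.06), or by 0.05 as the mean over its probe sets and 0.12 under median centring.

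Endothelial identity genes bear on how much endothelial RNA the pools held. Of the 8 tested genes 5 were above and 3 below 0, with a median of 0.07 (-0.02 when control replicate 1 was left out, 0.15 when diabetic replicate 2 was) and 0 called. Their mean level was 10.91, 10.81 and 10.87 in diabetic and 10.81 and 10.85 in control pools, a spread of under 0.1 with overlapping groups. Over all 19 identity genes on the array, 11 of them too dim to test, the median difference was -0.05. The mean level of the 19 was 9.65, 9.69 and 9.76 in diabetic and 9.67 and 9.79 in control pools. Of the 19, 5 had every diabetic pool below both controls and 2 above both, beside 9.07% and 9.4% of all 18193 genes. Sox17, an endothelial transcription factor, differed by 0.23 (SE 0.20), a value that ran from 0.04 without control replicate 2 to 0.42 without control replicate 1, was 0.12 without diabetic replicate 3 and 0.11 as the mean over its probe sets, and was -0.06 without both arrays of high muscle signal. Ramp2, the co-receptor for adrenomedullin, differed by -0.22 (SE 0.15) with all diabetic pools below both controls. With the mean of the 8 tested identity genes subtracted in each array, Cldn5 differed by 0.07, Slc2a1 by 0.08, Mfsd2a by 0.10, Abcb1a by 0.07 and Plvap by -0.32. Pericyte and smooth muscle genes, whose cells wrap the same capillaries, had 2 of 6 tested genes above 0 and a median of -0.02 that was 0.02 under median centring, -0.14 without control replicate 1 and 0.09 when control replicate 2 was left out. Among them Abcc9 was at 0.23 (SE 0.25), from 0.0092 without diabetic replicate 2 to 0.44 without diabetic replicate 1, and Pdgfrb at -0.14 (SE 0.20), from -0.32 without diabetic replicate 2 to 0.04 without diabetic replicate 1.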

How the data were processed

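The submitters' series matrix gives 1 signal intensity per probe set and array on a linear scale. All 5 deposited columns share a trimmed mean of 2500 (lowest and highest 2% left out), as global scaling gives; the software behind them is not given in the sources used here. Of 45101 probe sets, 64 were controls, 34945 had 1 gene symbol, 932 several and 9160 none listed. For 34741 probe sets the Entrez ID gave a current symbol in a RefSeq gene table.

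Signals were taken as log2(signal + 120.6), the pseudocount being the 20th percentile of all values. Each gene was its probe set of highest mean (18193 genes), and the upper 60% by mean level (10916) were tested with limma (lmFit, eBayes with a trend; residual degrees of freedom, 3), with p-values adjusted by Benjamini-Hochberg and called under 0.05. The members, the 9 context lists and the tests were chosen with earlier results of these data known. All members and the 2 tested genes of smallest p per list are named. The number of arrays limits the precision. A p-value sets a difference against the spread between pools, here shrunk towards a trend over all genes. In the diabetic group that spread includes the difference in weeks of diabetes. The steps were run on simulated data with independent noise and planted differences larger than those of the tested members. The simulation held no differences in tissue content or RNA integrity between pools. Replicate numbers are shared by the groups. Across genes, deviations from the group mean correlated at r = 0.13 between the replicates 1 and at r = -0.14 between the replicates 2. With 2 controls, the deviations of one control mirror those of the other. Diabetic replicates 1 and 2 therefore had r = -0.13 and 0.14 with the control of the other number. Whether the numbers mark pairs was not settled by these values. R 4.3.3, limma 3.58.1 and matplotlib 3.10.9 were used.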

Additional observations from a re-analysis of the deposited data

How the results depend on the processing

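Over 18 alternatives, 0 members were called in any, but not every member was tested in each. Ocln, Cdh5 and Pecam1 were tested only without the filter on dim genes, and Mfsd2a there and with the mean over probe sets. With the upper 40% of genes kept, Cldn5 and Abcb1a were not tested either. The count of called genes was 0 except with the replicate block (2, Spc25 and Rgr, where Rgr differed by -1.97), without the 2 arrays of high muscle signal (2, Spc25 and Npl), and with single arrays left out (0 to 1: Prss22 without diabetic replicate 2, Spc25 without diabetic replicate 3). No control has the number of diabetic replicate 3, so the block drops that array; with it Plvap differed by -0.37, Pecam1 by -1.03 and Slc2a1 by 0.13.

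Plvap, Pecam1, Slc2a1 and Mfsd2a kept their sign throughout. The members' median was 0.10 under median centring, where that over all genes tested was 0.0488. It was 0.0061 without both muscle arrays and -0.0029 to 0.0403 with single arrays left out. Signs turned as follows, always in values that were not called. Without both muscle arrays Cldn5 was at -0.0946, Ocln at 0.45, Tjp1 at -0.0018, Sox17 at -0.0645 and Itga2b at 0.11. With the replicate block Ocln was at 0.0427 and Tjp1 at -0.0111. Under quantile normalization Tjp1 was at -0.0140 and Cdh5 at 0.0330, which was 0.0373 under median centring and 0.0135 with a pseudocount of 690. With array weights Tjp1 was at -0.00052, Esam at -0.0219, Myl1 at 0.31 and Atp2a1 at 0.29. With the endothelial mean subtracted Tjp1 was at -0.0303 and Esam at -0.0176. With single arrays left out Cldn5 ran from -0.0037 to 0.21, Ocln from -0.48 to 0.32, Tjp1 from -0.0293 to 0.0436, Cdh5 from -0.24 to 0.31, Abcb1a from -0.0288 to 0.23, Esam from -0.0342 to 0.0607, Pdgfrb from -0.32 to 0.0378, Myl1 from -3.63 to 1.41, Atp2a1 from -2.41 to 1.03 and Itga2b from -0.32 to 0.15. Median centring and subtracting the endothelial mean move the difference of every gene by the same amount. The cause of the other turns was not tested. Leaving out a control leaves 1 control array, assumed to vary like the others. Ocln, Cdh5 and Pecam1 were dim, and the pseudocount moved Pecam1 from -1.50 (pseudocount 1) to -0.37 (690).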

Other observations

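Several dim endothelial genes had the order of Plvap and Pecam1. They were picked out after their values were seen and were below the filter on dim genes. Cd34, a sialomucin of vascular endothelium, was at signals of 570.4, 429.9 and 461.0 in diabetic and 635.0 and 850.7 in control pools. Emcn, another endothelial sialomucin, was at 466.0, 390.3 and 488.2 against 538.5 and 651.2, and the angiopoietin receptor gene Tek at 560.5, 651.5 and 653.4 against 727.1 and 766.8. Of the 19 identity genes on the array, 5 (these 3, Ramp2 and Tie1) had every diabetic pool below both controls and 2, Robo4 and Clec14a, above both, beside 9.07% and 9.4% of all 18193 genes. Over the 19 genes the median difference was -0.05.

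Cldn1, a claudin of epithelia, was 1 dim junction gene of the same order, at 387.1, 351.2 and 193.9 in diabetic and 601.3 and 590.6 in control pools. Cldn19 was at 34.4 and 24.7 in the controls and at 39.1, 49.8 and 171.5 in the diabetic pools. All but the last lay under 120.6, the 20th percentile of all signals. Both genes were picked out after their values were seen. Every diabetic pool lay below both controls in 9.07% of all 18193 genes and above both in 9.4%. The values of Cldn1 and Cldn19 were given no test.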
